A study of Mus musculus with 12 samples.

Results

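miR-802 is a microRNA (miRNA, a short RNA that pairs with messenger RNAs and lowers their output) whose hairpin precursor gives a 5p and a 3p product, one from each arm. Its levels were described here in the livers of 12 adult male mice. The members were the rows mmu-miR-802-5p and mmu-miR-802-3p, taken by name, and both were listed among the 386 mature miRNA rows measured. Wild type mice labelled C57BL/6 were studied at postnatal day 84. Their mothers, from 35 females of C57BL/6J, ate an obesogenic diet (20% lipids, 10% simple carbohydrates, and condensed milk with sugar) or a control diet (3% lipids, 7% simple carbohydrates). Litters were brought to 6 pups, and from day 21 each son ate one of these diets himself until he was killed after fasting. In the group OO mother and son had the obesogenic diet, in CO only the son, in OC only the mother, and in CC both had the control diet, with 3 libraries in each group. The labels do not name the dam of a library, so sons of 1 litter could be present, and the p-values measure only the spread between these libraries.

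In mice, miR-802 is known as a miRNA that rises in the liver in diet-induced and genetic obesity, where raising it impairs glucose tolerance and insulin action. miR-802 is also known from pancreas, intestine and kidney epithelium. A miRNA recognises its targets mainly through its seed, bases 2 to 8 from the 5′ end.

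The mature sequences are shown because they set what each row counts, and the capitals mark the seed. They were taken from RefSeq on GRCm38.p6 and are 22 bases each.
miR-802-5p: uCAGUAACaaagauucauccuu
miR-802-3p: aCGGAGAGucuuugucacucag
The seeds differ, and 0 of the other mature mouse miRNAs in that table, which holds 1679 names, share either of them. The exact pairing partner of the 5p seed reads GUUACUG and that of the 3p seed CUCUCCG.

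The hairpin of 97 bases lies on the plus strand at chr16:93369720-93369816 (GRCm38.p6), with miR-802-5p at chr16:93369737-93369758 and miR-802-3p at chr16:93369775-93369796. The build the authors used is not given in the sources used here, so these positions come from RefSeq alone. The capitals mark the 5p and then the 3p product, with 16 bases between them.
Mir802 hairpin: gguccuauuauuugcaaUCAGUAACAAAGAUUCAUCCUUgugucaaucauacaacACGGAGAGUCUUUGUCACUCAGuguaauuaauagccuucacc
A fold predicted with RNAfold paired 16 of the 22 bases of each product with the other product, at -30.8 kcal/mol. In GENCODE vM21, on GRCm38, the hairpin overlaps no other gene. The noncoding RNA gene 1810044K17Rik ends 690 bases before it on the same strand. For orientation on chromosome 16, the protein-coding gene Setd4 lies 213640 bases after it and Runx1, which encodes a transcription factor of blood cells, 543570 bases before it. Transcripts of 0 other genes in that annotation held any 18 consecutive bases of miR-802-5p. A stretch of 18 bases of miR-802-3p occurred in 3 transcripts of 1 other gene, Neto2, which encodes an accessory protein of kainate receptors, and no longer run was shared.

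Expression was given by the authors as CPM, reads scaled to 1000000 per library. Behind these values stood 5.45 to 22.2 M reads (mega-reads) per library. These are the reads that 1000000 CPM stand for, here called depth, and not a count of all reads sequenced. The rows of a library summed to 0.866% to 1.17% more than 1000000 CPM, and the reason was not tested. miR-802-5p averaged 398 ± 202 CPM over the 12 livers (SD, n = 12) and ranked 75 of 386 by its mean, between miR-1843b-5p (419 CPM) and miR-221-3p (396 CPM). miR-802-3p averaged 153 ± 70.0 CPM (SD, n = 12) and ranked 114, between miR-320-3p (158 CPM) and miR-99a-5p (150 CPM). The 5 hepatocyte markers looked up were all listed and summed to 336570 to 406853 CPM per library. Among them miR-122-5p, a hepatocyte miRNA, stood at 23414 ± 2556 CPM (SD, n = 12), far above both arms. In bulk tissue, fewer cells expressing a miRNA and less of it per cell cannot be told apart.

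miR-802-5p stood at 293, 401 and 918 CPM in OO livers, 175, 386 and 620 CPM in CO livers, 272, 289 and 442 CPM in OC livers, and 237, 296 and 447 CPM in CC livers. OO replicate 3 was the highest of all 12 livers and CO replicate 3 the lowest, so both extremes came from obesogenic-fed sons, and the ranges of all 4 groups overlapped. Group means were 537 ± 334 CPM in OO, 393 ± 222 in CO, 334 ± 93.4 in OC and 326 ± 108 in CC (SD, n = 3 each). Each step in that order was smaller than the SD of either neighbour.

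miR-802-3p, the less abundant arm, stood at 94.3, 144 and 345 CPM in OO livers, 114, 148 and 212 CPM in CO livers, 112, 125 and 149 CPM in OC livers, and 89.4, 121 and 184 CPM in CC livers. OO replicate 3 was again the highest, whereas the lowest was CC replicate 2, and all group ranges overlapped. Group means were 194 ± 133 CPM in OO, 158 ± 50.0 in CO, 128 ± 18.7 in OC and 132 ± 48.0 in CC (SD, n = 3 each). The means ran in the order OO, CO, CC and OC, and neighbours in that order differed by less than the SD of either.

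**Figure D1:**
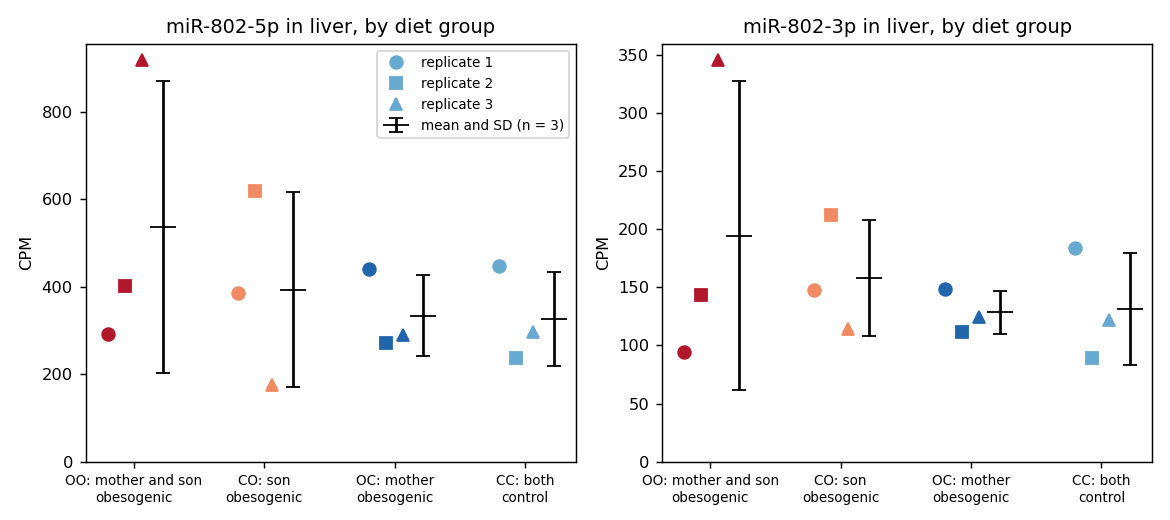
CPM of miR-802-5p (left) and miR-802-3p (right) in each of 12 livers by diet group, with the group mean and SD (n = 3). The group ranges overlap, and OO replicate 3 stands above all other livers at 918 and 345 CPM.

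Counting error was small beside these differences. The fewest reads behind a value of miR-802-5p were 953, in CO replicate 3, where the exact 95% Poisson interval ran from 164 to 186 CPM. The most were 9798, in OC replicate 1. For miR-802-3p the reads ranged from 622 to 3613. These intervals cover counting error only, and reads without molecular identifiers are not independent molecules.

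Whether the sons' own diet moved miR-802 was asked first over both maternal diets. The mean of miR-802-5p was 465 ± 266 CPM for sons on the obesogenic diet and 330.3 ± 90.5 CPM for sons on the control diet (SD, n = 6 each). For miR-802-3p the means were 176.2 ± 91.9 CPM on the obesogenic and 129.998 ± 32.6 CPM on the control diet. The obesogenic-fed livers spanned 175 to 918 CPM for the 5p arm and held all control-fed values, 237 to 447 CPM, within their range. The log2 change was 0.34 (SE 0.341, 95% interval -0.40 to 1.09, limma adjusted p = 0.70) for the 5p and 0.33 (SE 0.294, -0.31 to 0.98, limma adjusted p = 0.65) for the 3p arm. Neither passed the threshold of an adjusted p under 0.05, in a comparison where 3 of 386 miRNAs, or 0.777%, did. The point estimates were 1.27-fold for the 5p and 1.26-fold for the 3p arm, and the interval of the 5p arm reached from 0.756-fold to 2.13-fold. Without OO replicate 3 the log2 changes were 0.11 and 0.07.

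With control-fed mothers, CO livers were set against CC livers. The log2 change was 0.14 (SE 0.482, 95% interval -0.92 to 1.19, limma adjusted p = 0.94) for miR-802-5p and 0.28 (SE 0.416, -0.63 to 1.19, limma adjusted p = 0.79) for miR-802-3p, where 0.777% of all miRNAs passed. The sign of the 5p change depended on single livers, at -0.28 without CO replicate 2 and 0.63 without CO replicate 3. With obesogenic-fed mothers, OO livers were set against OC livers. The log2 change was 0.54 (SE 0.482, -0.51 to 1.60, limma adjusted p = 0.90) for the 5p and 0.39 (SE 0.416, -0.52 to 1.30, limma adjusted p = 0.94) for the 3p arm, where 0.518% passed. Without OO replicate 3 these were 0.07 and -0.13. OO replicate 3 and OC replicate 2 have titles with a common stem, found in no other library and unexplained by the labels. Those livers stood at 918 and 272 CPM of miR-802-5p.

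For maternal diet, averaged over the sons' diet, the mean of miR-802-5p was 436 ± 246 CPM in sons of obesogenic mothers and 359.9 ± 161 CPM in sons of control mothers (SD, n = 6 each). For miR-802-3p these means were 161 ± 92.2 and 145 ± 46.2 CPM. The log2 change was 0.25 (SE 0.341, 95% interval -0.49 to 0.998, limma adjusted p = 0.77) for the 5p and 0.07 (SE 0.294, -0.57 to 0.72, limma adjusted p = 0.94) for the 3p arm, in a comparison where 0 of 386 miRNAs passed by limma (0%) and 27 had an unadjusted p under 0.05. The 3p value turned to -0.01 with TMM factors, which rescale libraries on their common miRNAs. With log2 depth as a covariate the changes were -0.22 for the 5p and -0.15 for the 3p arm, and depth averaged 14.7 ± 6.00 M reads in OO and 18.8 ± 2.97 in OC, against 11.2 ± 5.04 in CO and 9.94 ± 3.02 in CC (SD, n = 3 each). Title prefixes split fully with maternal diet, so a batch behind them cannot be told apart from it.

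OC livers set against CC livers gave log2 changes of 0.05 (SE 0.482, 95% interval -1.01 to 1.10) for the 5p and 0.02 (SE 0.416, -0.89 to 0.93) for the 3p arm, with limma adjusted p = 0.9999 for both. The mean CPM of the 3p arm was lower in OC than in CC, unlike its mean on the log2 scale. OO livers set against CO livers gave log2 changes of 0.45 (SE 0.482, -0.60 to 1.51, limma adjusted p = 0.64) for the 5p and 0.13 (SE 0.416, -0.78 to 1.04, limma adjusted p = 0.91) for the 3p arm. Without CO replicate 3 the first was -0.04, and without OO replicate 3 the second was -0.39. The median over all miRNAs was 0.13 here and -0.01 with TMM factors, so that the 5p arm stood 0.32 above it and the 3p arm at -0.01 from it. With that scaling the 3p change was -0.03. By limma 0% of all rows passed in either comparison, and an unadjusted p under 0.05 was reached by 4 rows for OC against CC and by 47 for OO against CO.

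With both diets, OO against CC, miR-802-5p had its highest point estimate of the 8 comparisons, a log2 change of 0.59 (SE 0.482, 95% interval -0.46 to 1.65, limma adjusted p = 0.71), and miR-802-3p one of 0.41 (SE 0.416, -0.51 to 1.32, limma adjusted p = 0.81), where 0.259% of miRNAs passed. Without OO replicate 3 these were 0.12 and -0.11. The interaction, the sons' diet effect in OO against OC minus that in CO against CC, was 0.40 (SE 0.681, -1.09 to 1.90, limma adjusted p = 0.83) for the 5p and 0.11 (SE 0.589, -1.18 to 1.40, limma adjusted p = 0.95) for the 3p arm, where 0% passed by limma and 15 had an unadjusted p under 0.05. The median over all miRNAs was 0.13 for that difference and -0.01 with TMM factors, where the 3p value was -0.04.

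**Figure D2:**
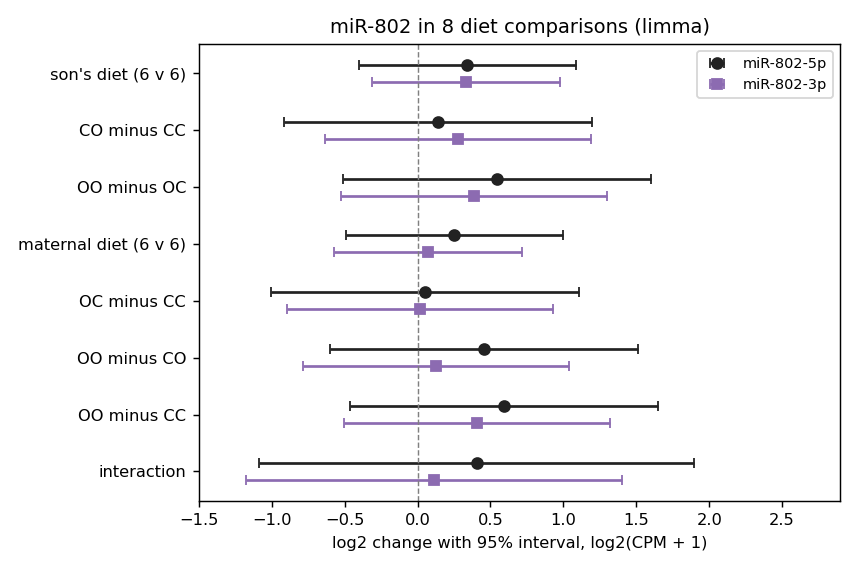
Log2 changes of miR-802-5p and miR-802-3p with 95% intervals in 8 diet comparisons, on the log2(CPM + 1) scale from limma. Every interval includes 0, and the upper bounds of the 5p arm lie between 0.998 and 1.90.

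Livers of the same group differed more in miR-802 than in most miRNAs. The within-group SD on the log2 scale was 0.69 for miR-802-5p and 0.59 for miR-802-3p, against a median of 0.24 over all 386 miRNAs. Among the 140 miRNAs with a mean of at least 100 CPM, the median was 0.19, and the arms ranked 8 and 9 from the highest. miR-1843b-5p and miR-221-3p, next to miR-802-5p in abundance, had 0.10 and 0.14. For the comparison of the sons' diet, the 95% interval reached 0.75 to either side of the 5p estimate, against a median of 0.30 over all miRNAs.

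**Figure D3:**
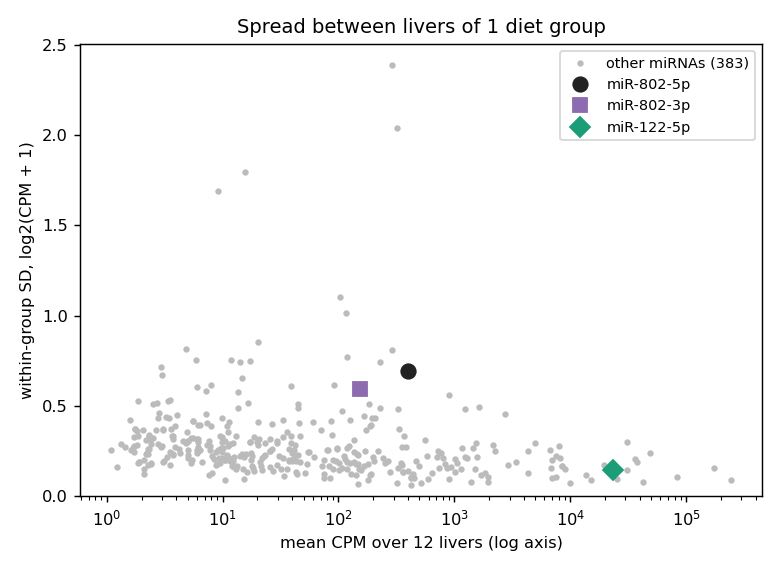
Within-group SD of log2(CPM + 1) against mean CPM for all 386 miRNAs, with both arms of miR-802 and miR-122-5p marked. The arms lie at 0.69 and 0.59, above most miRNAs of like abundance.

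In miR-802-5p the livers of obesogenic-fed sons were further apart than those of control-fed sons. The SD of log2(CPM + 1) of miR-802-5p was 0.85 in OO and 0.92 in CO, against 0.38 in OC and 0.46 in CC (n = 3 each). The highest liver exceeded the lowest 5.25-fold among the 6 obesogenic-fed sons and 1.89-fold among the 6 control-fed sons. Single livers carried much of this. The SD was 0.32 in OO without OO replicate 3 and 0.48 in CO without CO replicate 3 (n = 2 each), and the range of the obesogenic-fed sons was 3.13-fold without CO replicate 3 and 3.54-fold without OO replicate 3. Leaving out OC replicate 1 gave an SD of 0.06 in OC, and leaving out CC replicate 1 gave 0.23 in CC. For miR-802-3p the SD was 0.95 in OO, 0.45 in CO, 0.21 in OC and 0.52 in CC, so CO did not exceed CC in that arm, and without OO replicate 3 it was 0.43 in OO. The SDs and ranges of miR-802 given here and above are at the deposited scaling. CO replicate 3 had the lowest TMM factor of the 12 libraries (0.826) and OO replicate 3 the highest (1.10). Dividing by these factors raises the values of CO replicate 3 and lowers those of OO replicate 3. With TMM factors the SE of the 5p change by the sons' diet was 0.306, against 0.341. The difference in spread was seen in the data and was not tested.

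The arms, cut from 1 hairpin, varied together from liver to liver. Over the 12 livers log2(CPM + 1) of the arms correlated at Pearson r = 0.91 (permutation p = 5e-05, adjusted p = 0.00025) and Spearman rho = 0.91 (permutation p = 1e-04, adjusted p = 5e-04), with adjustment over the 5 relations computed. The livers share a scaling within each library, which enters both arms. Without OO replicate 3 and CO replicate 3, farthest from the median, r was 0.94, and on deviations from the group means it was 0.92. Within the livers of obesogenic mothers r was 0.97 (permutation p = 0.009) and within those of control mothers 0.89 (permutation p = 0.02, n = 6 each). The rho was 0.83 (permutation p = 0.06) with obesogenic and 0.94 (permutation p = 0.02) with control mothers. Leaving out single livers gave 0.84 without OO replicate 3 to 0.97 without CO replicate 3. Of 99 hairpins with both arms listed, the median r was 0.53 and miR-802 ranked 7. Of the 18 whose arms both averaged at least 100 CPM, it ranked 4, with a median of 0.73.

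**Figure D4:**
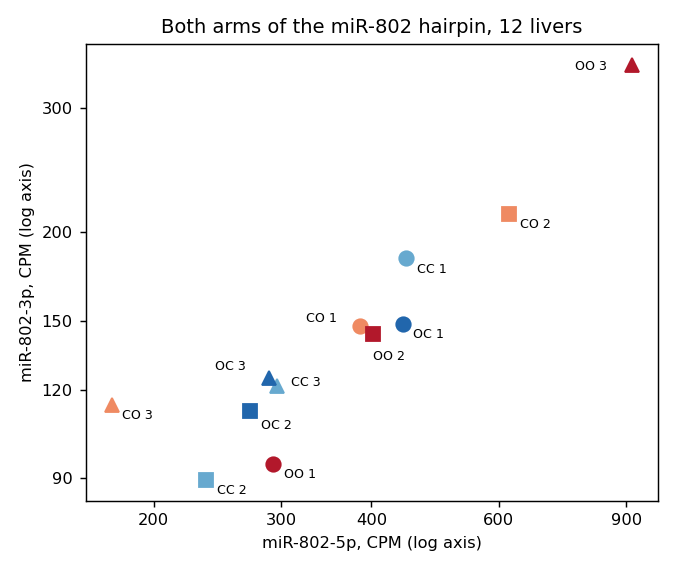
CPM of miR-802-3p against miR-802-5p in 12 livers, both on log axes, labelled by group and replicate. The arms rise together from about the level of CC replicate 2 to OO replicate 3, and CO replicate 3 lies to the left of the other livers.

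The ratio of the arms, which does not depend on how a library is scaled, averaged 2.57 ± 0.408 in favour of the 5p arm (SD, n = 12). It was 2.85 ± 0.229 in OO, 2.35 ± 0.728 in CO, 2.57 ± 0.349 in OC and 2.50 ± 0.122 in CC (SD, n = 3 each). The exception was CO replicate 3, the shallowest library, at 1.53, while the other 11 livers lay between 2.32 and 3.11. The mean log2 ratio was 1.35 ± 0.369 on the sons' obesogenic diet and 1.34 ± 0.129 on their control diet (SD, n = 6 each), a difference of 0.00715 (exact permutation p = 0.98, adjusted p = 0.98 over 4 tests). It was 1.43 ± 0.164 with obesogenic and 1.25 ± 0.327 with control mothers, a difference of 0.18 (exact permutation p = 0.32, adjusted p = 0.61) that was 0.04 without CO replicate 3. All exact permutation tests were two-sided, within strata of the other diet. Over the 12 livers they had 400 arrangements and a smallest possible p of 0.005. Tests that left out a liver had fewer arrangements.

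Set against miR-122-5p in the same library, miR-802-5p reached 0.0130, 0.0198 and 0.0459 of its level in OO livers, 0.00606, 0.0184 and 0.0276 in CO livers, 0.0118, 0.0123 and 0.0174 in OC livers, and 0.00942, 0.0126 and 0.0177 in CC livers. The ranges overlapped as those of the CPM did. In CO replicate 3, which had the lowest ratio, miR-122-5p was the highest of the 12 livers, at 28851 CPM. The mean log2 ratio was -5.78 ± 0.990 on the sons' obesogenic diet and -6.24 ± 0.351 on their control diet (SD, n = 6 each), a difference of 0.46 (exact permutation p = 0.305, adjusted p = 0.61). For maternal diet it was -5.83 ± 0.739 with obesogenic and -6.20 ± 0.778 with control mothers, a difference of 0.37 (exact permutation p = 0.46, adjusted p = 0.61). Without CO replicate 3 the difference by the sons' diet was 0.78 (exact permutation p = 0.035, not adjusted), and without OO replicate 3 it was 0.21 (exact permutation p = 0.585). Leaving out any other single liver gave no p under 0.05 for this ratio. By maternal diet, leaving out CO replicate 3 gave 0.05 and leaving out OO replicate 3 gave 0.12. For the denominator miR-192-5p, the most abundant miRNA in these livers, the difference was 0.22 by the sons' diet (exact permutation p = 0.615) and 0.29 by maternal diet (exact permutation p = 0.52).

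Because miR-802 is also expressed in pancreas and intestine, miRNAs of those epithelia were read beside it. Of 4 pancreas markers, only miR-375-3p, a miRNA of islet and other endocrine and epithelial cells, was listed, and the others were not analysed here. It ranged from 16.6 to 51.2 CPM in OO, from 35.8 to 1061 in CO, from 21.9 to 1734 in OC and from 17.7 to 197 in CC. OC replicate 1 (1734 CPM) and CO replicate 2 (1061 CPM) were its highest livers and also the highest in the epithelial miR-141-3p, at 259 and 221 CPM. miR-802-5p was the highest of its group in both, at 442 and 620 CPM. In OO replicate 3, however, where miR-802-5p was highest of all, miR-375-3p and miR-141-3p were the lowest of the 12 livers, at 16.6 and 60.3 CPM. Also in that liver, miR-200c-3p, another epithelial miRNA, stood at 8.31 CPM and miR-215-5p, which is known from intestine as well as liver, at 76.9 CPM, and both ranked 7 of 12 from the highest. Their highest liver was OC replicate 1, at 26.1 CPM of miR-200c-3p and 422 CPM of miR-215-5p. The 6 biliary and other epithelial markers, all listed, summed to 875 to 1112 CPM in OO, 910 to 1295 in CO, 921 to 1484 in OC and 1054 to 1284 in CC. The most abundant of the 6 was miR-31-5p, at a mean of 518 CPM. It was lower by the sons' diet, with a log2 change of -0.43 (limma adjusted p = 0.0074), where 0.777% of all miRNAs passed. The other 5 were higher and did not pass, so the sum mixes both directions.

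Over the 12 livers, miR-802-5p and miR-375-3p correlated at r = -0.01 (permutation p = 1, adjusted p = 1) and rho = -0.19 (permutation p = 0.6, adjusted p = 0.6). Without OC replicate 1 and CO replicate 2, which stood apart in miR-375-3p, r was -0.65 and rho -0.67 over the other 10 livers (permutation p = 0.04 for both, unadjusted). For miR-802-3p r was -0.05 over all livers and -0.52 over those 10. Leaving both livers out of the fit gave a log2 change of miR-802-5p by the sons' diet of 0.24 and by maternal diet of 0.35, against 0.34 and 0.25 with them. The changes in CO against CC and OC against CC were then -0.28 and -0.17 for the 5p arm. The part of other tissue in the values of those livers was not tested.

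**Figure D5:**
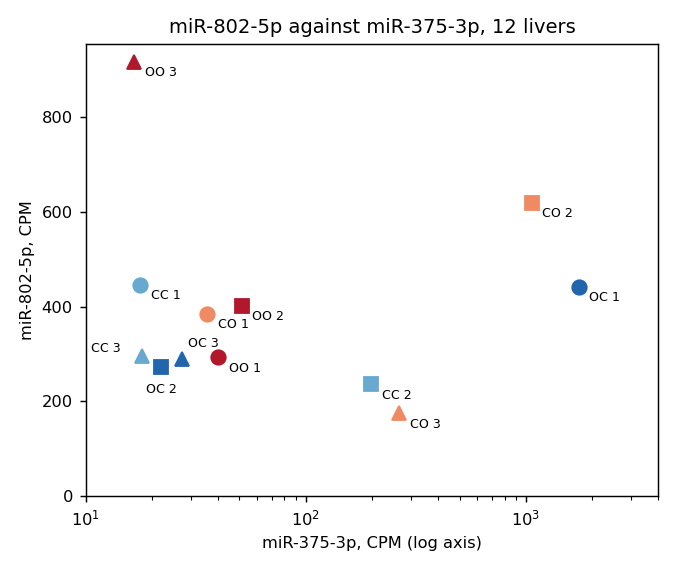
CPM of miR-802-5p against CPM of miR-375-3p (log axis) in 12 livers, labelled by group and replicate. OO replicate 3, at 918 CPM of miR-802-5p, has the lowest miR-375-3p, while CO replicate 2 and OC replicate 1 have 1061 and 1734 CPM of it, above the other 10 livers.

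Depth was read in the same way. The shallowest library, CO replicate 3 at 5.45 M reads, had the lowest miR-802-5p, while OO replicate 3, with the highest, had 10.5 M reads. CO replicate 3 also had the lowest summed endothelial markers (15584 CPM, 2 of 2 listed) and leukocyte markers (1752 CPM, 5 of 5 listed), against 24420 and 3060 CPM in OO replicate 3. Erythroid markers (4 of 5 listed) summed to 5049 CPM in CO replicate 3 and 4532 CPM in OO replicate 3, mesenchymal markers (5 of 5) to 46178 and 33759 CPM, and muscle and nerve markers (3 of 5) to 97.5 and 44.4 CPM. Hepatocyte markers (5 of 5) summed to 406853 CPM in CO replicate 3, the highest of all livers, and to 355869 CPM in OO replicate 3. By mean over all livers, miR-143-3p (36163 CPM) made up most of the mesenchymal sum and miR-142-5p (2252 CPM) most of the leukocyte sum. miR-133a-3p (320 CPM) did so for the muscle and nerve sum. These sums therefore do not show whether the markers of a list moved alike. The part of depth and of these cells in the values of miR-802 was not tested. Across the livers log2 depth correlated with miR-802-5p at r = 0.42 (permutation p = 0.2, adjusted p = 0.5) and rho = 0.36 (permutation p = 0.3, adjusted p = 0.5), and without CO replicate 3 and CC replicate 2 r was -0.13.

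The miRNAs whose levels followed miR-802-5p most closely over the 12 livers were picked by Pearson r of log2(CPM + 1) among 259 other rows with a mean of at least 10 CPM. They were miR-378a-5p (r = 0.88, rho = 0.79), miR-221-3p (0.85, 0.90), miR-152-3p (0.83, 0.80), miR-425-5p (0.82, 0.64) and miR-378c (0.82, 0.76), none as close as the other arm of the hairpin. The median r over the 259 rows was 0.36. The hairpin of miR-378a-5p lies within an intron of Ppargc1b, a gene for a co-activator of mitochondrial genes. Its level was highest in OO replicate 3, at 119.9 CPM, and lowest in CO replicate 3, at 59.7 CPM. In proportion to its level miR-221-3p covered a narrower range, with 467 CPM at most and 360.0 CPM at least. Without OO replicate 3 the values of r were 0.78 for miR-378a-5p, 0.81 for miR-221-3p, 0.71 for miR-152-3p, 0.65 for miR-425-5p and 0.65 for miR-378c. As these rows were picked for their r, the values are a description. The scaling shared within each library enters them, here and for miR-802-3p below. CO replicate 3 and OO replicate 3 had the lowest and the highest TMM factor. The part of scaling in these values of r was not tested.

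For miR-802-3p the closest rows were miR-378c (r = 0.89, rho = 0.78), miR-3068-3p (0.82, 0.49), miR-582-3p (0.79, 0.51), miR-149-5p (0.78, 0.51) and miR-365-3p (0.78, 0.52). OO replicate 3 was the highest liver for each of these 5, at 1147 CPM of miR-378c, 56.9 of miR-3068-3p, 98.4 of miR-582-3p, 281 of miR-149-5p and 238 of miR-365-3p. Without it r was 0.75 for miR-378c, 0.55 for miR-3068-3p, 0.48 for miR-582-3p, 0.45 for miR-149-5p and 0.43 for miR-365-3p, while the arms of miR-802 still correlated at 0.84.

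Other miRNAs linked to insulin signalling and glucose metabolism were read from a list of 51 names, of which 50 were listed. By limma 0 of these 50 passed in each of the 8 comparisons, where 0.777% of all miRNAs passed for the sons' diet. An unadjusted p under 0.05 was reached by 9 of them, or 18%, for the sons' diet, near the 14.8% of all rows, and by 4, or 8%, for maternal diet, near the 6.99% of all rows. The smallest limma adjusted p for the sons' diet, 0.0765, was that of miR-378a-3p, at 15208 ± 1406 CPM on the obesogenic and 12312 ± 621 CPM on the control diet (SD, n = 6 each). By the sons' diet 27 members were higher and 23 lower, with a median log2 change of 0.04 (-0.02 over all miRNAs), and by maternal diet 30 were higher and 20 lower, with a median of 0.06 (0.08 over all). The most abundant members, miR-22-3p, miR-148a-3p, miR-143-3p and let-7f-5p, had log2 changes by the sons' diet of -0.16, 0.03, 0.01 and 0.24. In within-group SD miR-802-5p would rank 4 and miR-802-3p 5 among these 50, whose median was 0.24.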

How the data were processed

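Small RNA of 12 mouse livers was sequenced after miRNeasy extraction with the TruSeq small RNA kit, per the labels' protocols. The submitters' processing notes name Bowtie 1.2.3. The genome build, the set of miRNAs aligned to, how multiply matching reads were counted and any row filter were not given in the sources used here. CPM, the authors' deposited unit, was available for 386 rows, of which 0 values were 0. In every library, 100% of values under 100000 reads were multiples of one fixed step (tolerance 0.001 reads), from which depth and reads per value were computed. Columns were assigned by the column number in the sample descriptions, and replicates were numbered in accession order. The main test was limma 3.58.1 (R 4.3.3), two-sided, on log2(CPM + 1) of all rows, with the trend option, a mean for each group and Benjamini-Hochberg adjustment over 386 rows within each comparison. It was tested on simulated data that shared a single setting of spread between libraries, below the within-group spread of miR-802. How the test behaves at the spread of miR-802 was therefore not examined. The planned count models and voom were not run: although whole reads could be derived, the columns did not pass a unit check that takes the lowest value of a library as 1 read, whereas that value stood for 1 to 20 reads. Alternatives were other pseudocounts (0.25 and 5 CPM), a minimum mean of 10 CPM, TMM and median-of-ratios factors (computed in Python, not with edgeR), quality weights, depth as a covariate, fits of 6 libraries and leaving libraries out. Correlations used 100000 permutations. The miRNAs named were fixed by rule: the members, neighbours in abundance, closest rows, seed sharers and list members that passed or were most abundant. miR-375-3p, miR-141-3p, miR-200c-3p, miR-215-5p, miR-31-5p, miR-142-5p, miR-133a-3p and miR-378a-3p were singled out after their values were seen. Members and lists were chosen with earlier results of these data known. Marker names were matched to older miRNA names where the table used them. Python 3.11.15, pandas 2.3.3, numpy 2.4.6, scipy 1.17.1 and RNAfold 2.7.2 were used.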

Additional observations from a re-analysis of the deposited data

Results flagged for a closer look

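OO replicate 3 lay far from the other 5 sons of obesogenic mothers in both arms, at 918 CPM of miR-802-5p, with a gap to the next liver of 0.737 of the whole range, and at 345 CPM of miR-802-3p, with a gap of 0.783. CO replicate 3 lay far from the others in the log2 ratio of miR-802-5p to miR-802-3p, at 0.62, with a gap of 0.756 of the range among obesogenic-fed sons and 0.716 among sons of control mothers. Each gap exceeds Dixon's 95% critical value for 6 samples, which chance alone exceeds in about 1 in 20 groups. More groups were looked at than were flagged. The arms vary together and the groups share livers, so that rate cannot be set against the number of flags. The gaps of the arms were taken on CPM, whereas the tests used log2(CPM + 1), where that of the 5p arm is smaller. Among the 6 obesogenic-fed sons OO replicate 3 was not flagged in either arm. OO replicate 3 had 10.5 and CO replicate 3 5.45 M reads (mega-reads), the lowest of all libraries, and the part of depth in these values was not tested.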

How the results depend on the processing

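No log2 change of miR-802 passed the threshold under any alternative that was run, with limma adjusted p-values of 0.301 or more. Of 330 alternative values for 16 log2 changes, 290 kept their direction and 40 were reversed. Many of the 290 could not have moved, so their number overstates how stable the directions were. In a comparison between single groups, leaving out a library of another group repeats the main change. Fits of 6 libraries and the minimum mean repeat it as well. The cause of the reversals was not tested. With TMM factors the 3p arm gave -0.0067 for maternal diet, -0.027 for OO minus CO and -0.041 for the interaction. With median-of-ratios factors the 3p arm gave -0.0054 for OO minus CO and -0.014 for the interaction. Quality weights gave -0.053 for maternal diet, -0.13 for OO minus CO and -0.16 for the interaction in the 5p arm, and -0.11, -0.27 and -0.32 for the same comparisons in the 3p arm. Log2 depth as a covariate gave -0.22 for maternal diet and -0.59 for OC minus CC in the 5p arm, and -0.15, -0.29 and, for OO minus CO, -0.016 in the 3p arm. Leaving out CO replicate 2 and OC replicate 1, chosen after seeing the data, gave -0.28 for CO minus CC and -0.17 for OC minus CC in the 5p arm, and -0.092 for OC minus CC in the 3p arm.

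Leaving out each library in turn gave, for the 5p arm, 0.11 to 0.59 for the sons' diet, -0.28 to 0.63 for CO minus CC, 0.07 to 0.89 for OO minus OC, 0.01 to 0.46 for maternal diet, -0.17 to 0.30 for OC minus CC, -0.038 to 0.87 for OO minus CO, 0.12 to 0.94 for OO minus CC and -0.088 to 0.82 for the interaction. For the 3p arm these ranges were 0.07 to 0.54, 0.03 to 0.55, -0.13 to 0.80, -0.19 to 0.28, -0.23 to 0.29, -0.39 to 0.54, -0.11 to 0.82 and -0.41 to 0.52 in the same order. The log2 ratio of the arms gave -0.083 to 0.15 for the sons' diet and 0.04 to 0.27 for maternal diet, and that to miR-122-5p 0.21 to 0.78 and 0.05 to 0.60. The value of 0.78, without CO replicate 3, had an exact permutation p of 0.035, against 0.18 to 0.585 without any other single library. The correlation of the arms stayed between 0.84 and 0.97.

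Counts over all 386 rows, with libraries left out included, were 3 to 12 for the sons' diet (12 with quality weights, 7 with TMM and 8 with median-of-ratios factors), 1 to 10 for CO minus CC (10 with depth as a covariate, 1 with TMM factors), 0 to 4 for OO minus OC (4 with quality weights, 0 without OO replicate 3), 1 to 4 for OO minus CC (4 with quality weights), 0 to 2 for OO minus CO (2 without CO replicate 2), 0 to 1 for maternal diet and the interaction, and 0 for OC minus CC. The edgeR, DESeq2 and voom alternatives were not run, because the derived reads did not pass the unit check described with the processing. No paired analysis was possible because the labels number no replicates, and numbers assigned by accession pair no samples. The 95% intervals of the 5p arm reached 0.746 to either side for the sons' and maternal diet, 1.05 between groups of 3 and 1.49 for the interaction.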
